A study of Mus musculus with 87 samples.

Results

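The genes described are the mouse Hox genes of paralog groups 9 and 10 with a row in the deposited tables: Hoxa9, Hoxb9, Hoxc9, Hoxd9, Hoxa10, Hoxc10 and Hoxd10. They were taken by symbol from the 13 tables of RNA-seq comparisons, and 7 of the 26171 symbols in each table are members. All 7 were found in every table, and the other 32 Hox genes served as the comparison.

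Hox genes encode homeodomain transcription factors that give cells their position along the head-to-tail axis, and they lie in 4 clusters in which gene order follows the order of expression along the body. The group 9 and 10 genes belong to the posterior, Abdominal-B-like part of the clusters: group 9 genes act in the thoracic region and its motor neurons, and group 10 genes suppress ribs in the lumbar region and act in lumbar motor neurons and the hindlimb. In embryonic stem cells the clusters are classic targets of Polycomb repressive complex PRC2. With Suz12 as a core subunit, that enzyme places the repressive mark H3K27me3 on histone tails. Retinoic acid, which drives the stem cells used here toward neural fates, is known above all as an inducer of anterior Hox genes.

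The study asked what exon 4 of Suz12, which is alternatively spliced, contributes to PRC2 activity. All samples came from the mouse embryonic stem cell (ESC) line 129-B13, kept in serum (20%) with LIF, or from neuronal precursors (NP) made from it as embryoid bodies with retinoic acid added on day 4 and harvest on day 8. Polyadenylated RNA was sequenced from 32 samples, 18 of ESC and 14 of NP, and 55 ESC samples of ChIP-seq enter here only as 2 lists of regions. The groups were wild type (WT, 3 ESC and 4 NP samples), the full Suz12 knock-out (KO, 3 and 2), WT cells with constitutive exon 4 (CSex4, 2 and 2), cells deleted for exon 4 and described in the labels as a Suz12 KO (Deltaex4, 2 and 2), and the KO with a rescue by the long isoform (KO-L, 2 and 2) or the short isoform (KO-S, 2 and 2). ESC were also taken from KO cells rescued from the Rosa26 locus with either isoform carrying what the labels call the 3D mutation, downstream of exon 4 (KO-L3D and KO-S3D, 2 each). The number of clones behind a group is not stated, nor whether samples were separate cultures. The p-values thus measure the spread between these samples, or between pairs of them where the authors' fit was paired. That spread may be technical. In bulk RNA, more cells that express a gene and more RNA per cell cannot be told apart.

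On build mm10, whose chromosome coordinates are those of the RefSeq table used (GRCm38.p6), Hoxa9 lies at chr6:52223097-52227370 and Hoxa10 at chr6:52231197-52240854. Hoxb9 lies at chr11:96271330-96276595. Hoxc10 lies at chr15:102966796-102971898 and Hoxc9 at chr15:102977032-102984444. Hoxd10 lies at chr2:74684273-74695106 and Hoxd9 at chr2:74697763-74700208. In this annotation Hoxd10 shares 2744 bp with Hoxd11, Hoxa10 shares 1455 bp with the lncRNA Gm52902 and Hoxc9 shares 587 bp with the lncRNA Gm36878. The sources used here do not say if reads were counted by strand, so reads from these overlaps cannot be told apart.

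All 7 genes lay wholly inside a region of the authors' Suz12 list for WT ESC. By the looser measure of a region within 2500 bp, all 7 members and 11.8% of 21900 protein-coding genes were at one. Every other Hox gene also overlapped a region of this list. The region over Hoxa9 and Hoxa10 was chr6:52196592-52255380, the one over Hoxb9 chr11:96267834-96335074, the one over Hoxc9 and Hoxc10 chr15:102948309-103017619, and the one over Hoxd9 and Hoxd10 chr2:74673537-74715644. The HoxC region spanned 69311 bp and was the widest of the 2865 in that list, whose median width was 2307 bp. In the H3K27me3 list, 5 of the 7 genes lay wholly inside a region. Within 2500 bp of one lay 6 of the 7, beside 22.3% of protein-coding genes. The members not inside a region were both in HoxC: the nearest H3K27me3 region, chr15:102932383-102966596, ended 200 bp from Hoxc10 and 10436 bp from Hoxc9. That region ranked 2 of 6882 by the value the authors deposited for it, and the region over Hoxa9 and Hoxa10 was the widest of the list, at 119430 bp. Of the other HoxC genes, Hoxc4, Hoxc5, Hoxc6 and Hoxc8 were not covered by an H3K27me3 region either. Neither list gives values by sample. Both lists come from DiffBind, and the sources used here do not say which group WT was compared with. Absence from a list thus does not show absence of Suz12 or of the mark.

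The promoters of Hoxa9 and Hoxd10 are shown because they lie in these domains and differ most in CpG content among the members in the promoter table. Each line gives the 250 bases before a RefSeq start of transcription, 5′ to 3′ on the gene's strand, with every CG dinucleotide in capitals. The Hoxa9 sequence is chr6:52227371-52227620 on the minus strand and the Hoxd10 sequence is chr2:74691641-74691890 on the plus strand (GRCm38.p6). The Hoxd10 window lies inside the span given above for the gene, so it precedes an inner start and not the outermost one.
Hoxa9: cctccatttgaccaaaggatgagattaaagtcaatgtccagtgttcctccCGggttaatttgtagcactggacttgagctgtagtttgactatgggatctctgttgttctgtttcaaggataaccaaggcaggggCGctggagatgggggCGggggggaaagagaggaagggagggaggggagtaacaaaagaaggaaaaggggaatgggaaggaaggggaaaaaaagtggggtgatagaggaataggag
Hoxd10: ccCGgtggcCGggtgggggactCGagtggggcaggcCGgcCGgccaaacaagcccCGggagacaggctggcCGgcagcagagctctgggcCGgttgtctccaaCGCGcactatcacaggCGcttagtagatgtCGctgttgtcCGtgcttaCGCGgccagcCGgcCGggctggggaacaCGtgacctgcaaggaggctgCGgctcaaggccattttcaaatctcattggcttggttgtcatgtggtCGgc
The Hoxa9 window held 3 CpGs and the Hoxd10 window 20, beside a median of 6 over the 32851 promoters of the table. The other matched windows held 13 CpGs at Hoxd9, 7 at the outer start of Hoxa10 and 20 at its inner start. The string TTTATG, searched on both strands as a core of posterior Hox binding motifs, was in none of the 5 windows of these 4 genes and in 10.8% of all promoters of the same length. Each of the 5 windows overlapped a Suz12 region and an H3K27me3 region.

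MicroRNA genes of the miR-196 family, known for targeting Hox mRNAs, lie between or beside the members, so their mature sequences are shown with the seed (bases 2 to 8) in capitals.
miR-196a-5p: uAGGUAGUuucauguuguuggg
miR-196b-5p: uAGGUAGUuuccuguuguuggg
The sequences have the same seed and differ in 1 of 22 bases. Mir196a-1 codes for the first of them at chr11:96265187-96265208 (plus strand), 6122 bp from Hoxb9. Mir196a-2 codes for the same sequence at chr15:102973365-102973386 (plus strand), 1467 bp from Hoxc10 and 3646 bp from Hoxc9. Mir196b codes for the second at chr6:52230129-52230150 (minus strand), 1047 bp from Hoxa10 and 2759 bp from Hoxa9. The rows of these genes in the tables count polyadenylated RNA at the locus, not mature miRNA.

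Across the series, Suz12 RNA was lower in the KO than in WT in the authors' deposited tables, with log2 fold changes of -1.82 ± 0.22 (SE) for ESC and -2.14 ± 0.33 for NP. All 8 ESC markers on the list had a higher mean level in the ESC KO table than in the NP KO table, and all 8 neural markers had a higher level in the NP table. So did all 5 endoderm, 5 of 6 trophoblast and 4 of 6 mesoderm markers. The tables hold statistics, not counts, but the whole reads of each library could be recovered for all 7 members from the deposited means, and libraries are called a to d here without a link to sample numbers. The 60 library places of the 13 tables were filled by 32 distinct libraries: the ESC tables share their WT libraries, 3 NP tables share a first pair of WT libraries (a and b), the NP table of WT against KO has a second pair (c and d), and 4 NP tables share the KO libraries. Relative depth, estimated from the same means, ranged from 0.856 to 1.27 in ESC and from 0.861 to 1.64 in NP. Read numbers below are whole reads per library, and scaled reads are those divided by relative depth, set to 1 for the ESC WT mean and the NP KO mean, so ESC and NP levels are on separate scales. No transcript lengths were used, so levels are compared between groups and not between genes.

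In ESC, loss of Suz12 went with a rise of every member. All 7 genes were called higher in the KO than in WT in the authors' deposited table (adjusted p under 0.05, DESeq2 as deposited), where 11% of 16918 tested genes were called higher and 7.27% lower. Their median log2 fold change was 5.81, with a range from 3.39 at Hoxb9 to 7.81 at Hoxa10, beside a median of 0.0067 over all tested genes. In WT none of the 7 exceeded 18 reads in any library.

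Hoxa9, a thoracic patterning gene also known from blood stem cells, had 2, 3 and 0 reads in the WT libraries and 73, 115 and 86 in the KO libraries. Every KO library was far above every WT library, and the log2 fold change in the authors' deposited table was 5.81 ± 0.84 (SE, adjusted p = 3.76e-10). Hoxb9, which acts in thoracic patterning with its paralogs, had the highest WT reads of the 7 genes, 18, 5 and 13, and 113, 167 and 103 in the KO. Its groups did not overlap either, and its log2 fold change, 3.39 ± 0.56 in the authors' deposited table (adjusted p = 6.98e-08), was the smallest of the members. Hoxc9, a determinant of thoracic motor neuron identity, rose from 0, 1 and 1 reads to 41, 87 and 41. With so few WT reads the size of that change is loosely set: the ratio of scaled reads was 80.6, with an exact 95% interval for counting error from 22.0 to 671, and the authors' deposited table gives 6.33 ± 1.21 (adjusted p = 5.27e-06). Hoxd9, the HoxD gene of the group, had 5, 2 and 3 reads in WT and 102, 237 and 212 in the KO. All KO libraries were again above all WT libraries, with a log2 fold change of 5.69 ± 0.63 and an adjusted p of 2.91e-17 in the authors' deposited table, the smallest p of the members.

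Of the lumbar group, Hoxa10, also known for its role in the uterus, had 1, 0 and 7 WT reads and 267, 307 and 406 KO reads. Its log2 fold change of 7.81 ± 1.43 in the authors' deposited table (adjusted p = 1.54e-06) was the largest of the members, and no KO library came near WT. Hoxc10, a lumbar motor neuron gene, had steady WT reads of 4, 3 and 4 and KO reads of 71, 132 and 112. The change was 4.74 ± 0.65 on the log2 scale in the authors' deposited table (adjusted p = 2.11e-11). Hoxd10, which acts in lumbar motor neurons and the hindlimb, had 0, 1 and 0 reads in WT and 44, 91 and 68 in the KO. The ratio of its scaled reads was 194, with a counting interval from 34.3 to 7681, and the authors' deposited table gives 7.44 ± 1.32 (adjusted p = 5.99e-07). Summed over the 7 genes, scaled reads were 14.0 to 30.7 in the WT libraries and 696 to 1045 in the KO libraries. Some lineage markers moved with them. The 6 mesoderm markers summed to 752, 752 and 262 scaled reads in the KO against 53.8 to 92.8 in WT. The trophoblast markers with recovered reads (3 of 6) summed to 744, 665 and 189 against 30.7 to 94.8. Both lists hold Hand1, with a mean of 443 scaled reads in the KO and 46.6 in WT, so the sums are not separate. Endoderm markers with recovered reads (4 of 5) were at 312, 318 and 376 in the KO and at 38.1, 60.6 and 777 in WT. Neural markers with recovered reads (5 of 8) were at 91.0, 177 and 207 against 127, 187 and 272. The part of these markers in the rise was not tested.

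**Figure D1:**
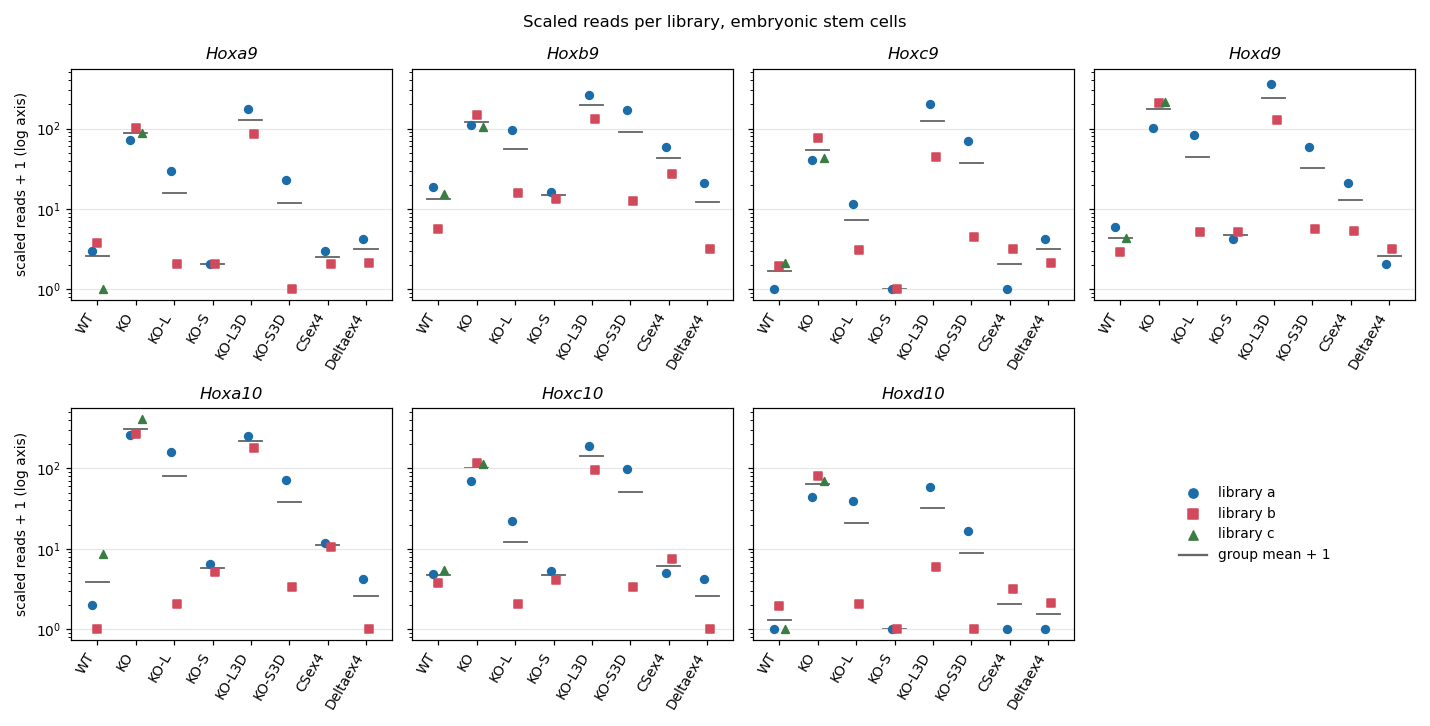
Scaled reads plus 1 (log axis) of each member in each ESC library, by group, with the group mean as a line. The 3 KO libraries lie above the 3 WT libraries for every gene, and in KO-L and KO-S3D library a lies above library b for every gene.

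Rescue with the short isoform left the 7 genes at or near WT reads in ESC, and the other rescues did not give a uniform picture. In KO-S, Hoxb9 had 14 and 12 reads and Hoxa10 5 and 4, and no other member exceeded 4 reads in either library, Hoxc9 and Hoxd10 being at 0 in both. None of the 7 was called in the authors' deposited table, where 4.28% of 14472 tested genes were called higher and 3.63% lower, and none had an unadjusted p under 0.05. Hoxb9, the only member with an adjusted p, had a log2 fold change of -0.21 ± 1.38 there (adjusted p = 0.970, authors' deposited table). With 0 reads in KO-S and at most 1 in any WT library, Hoxc9 and Hoxd10 give no fold at this depth.

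In KO-L, the long-isoform rescue, the 2 libraries stood apart. Hoxa10 had 153 reads in library a and 1 in library b, and Hoxd9 had 79 and 4. Hoxb9 had 91 and 14 reads, Hoxd10 37 and 1, and Hoxa9 27 and 1. Hoxc10 had 20 and 1 reads and Hoxc9 10 and 2. All 7 genes were thus higher in library a, whose summed scaled reads were 17.3 times those of library b, and library b lay within or close to the range of the WT libraries. Summed scaled reads of the other 32 Hox genes were 1092 in library a and 209 in library b, and those of the 6 mesoderm markers 555 and 301. Their part in the result was not tested. None of the members was called in the authors' deposited table, where 1.46% of 13880 tested genes were called higher and 0.771% lower: the median log2 fold change was 2.40, 3 of 7 had an adjusted p, and 1, Hoxd10 (5.43 ± 2.50, p = 0.0299), had an unadjusted p under 0.05. Without library a, the median log2 ratio of mean scaled reads fell from 2.60 to 0.26, so it rests on that library.

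KO-L3D, the long isoform with the 3D mutation, kept the members at KO-like reads, and all 7 were called higher than in WT in the authors' deposited table, where 8.22% of 15275 tested genes were called higher and 10.1% lower. Hoxd9 had 453 reads in library a and 130 in library b, Hoxb9 327 and 133, and Hoxa10 325 and 182. Hoxc9 had 258 and 44 reads, Hoxc10 242 and 96, Hoxa9 219 and 86, and Hoxd10 73 and 5. Library a was the higher for all 7, with summed scaled reads 2.27 times those of library b, but library b too exceeded every WT library for each gene. The log2 fold changes in the authors' deposited table ran from 3.54 ± 0.69 at Hoxb9 (adjusted p = 1.06e-05) to 7.57 ± 1.49 at Hoxc9 (adjusted p = 1.58e-05), with a median of 5.84, and the least certain was Hoxd10 (6.59 ± 2.16, adjusted p = 0.0186). Suz12 RNA was 1.85 lower than in WT on the log2 scale in this group (-1.85 ± 0.28 in the authors' deposited table). The part of Suz12 RNA in the KO-like reads was not tested, and its level in the other rescues is not given here. The summed trophoblast markers with recovered reads (3 of 6, Hand1 among them) were at 6174 and 1493 scaled reads in these libraries and at 30.7 to 94.8 in WT, and their part was not tested.

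KO-S3D, the short isoform with the same mutation, was again split. Library a had 171 reads of Hoxb9, 98 of Hoxc10, 72 of Hoxa10, 69 of Hoxc9, 58 of Hoxd9, 22 of Hoxa9 and 16 of Hoxd10. Library b had 10, 2, 2, 3, 4, 0 and 0 reads of the same genes. Every member was higher in library a, by 20.4 times in summed scaled reads, and library b was at or near WT reads. None was called in the authors' deposited table, where 2.05% of 14307 tested genes were called higher and 1.18% lower: the median log2 fold change was 2.08, 3 of 7 had an adjusted p, and Hoxc9 (5.27 ± 2.0, p = 0.00844) had an unadjusted p under 0.05. Without library a the median log2 ratio of mean scaled reads went from 2.88 to -0.22. The trophoblast markers with recovered reads summed to 5423 scaled reads in library a and 77.1 in library b and the mesoderm markers to 5243 and 123, a list that shares Hand1 with the first, and their part was not tested.

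Tests of the differences between rescues called no member in ESC. With baseMean, the deposited mean of scaled reads, of at least 10 in both tables, 3 members could be compared between KO-L3D and KO-L, and 4.88% of all genes differed. Only Hoxb9 could be compared between KO-S3D and KO-S, where 0.732% of genes differed, and between KO-S and KO-L, where 3.94% did. These tests, in which libraries of 1 group stood apart, do not show that the rescues act alike.

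Neither form of the exon 4 locus gave a called member in ESC. In CSex4, Hoxb9 had 58 and 25 reads, both above the WT maximum of 18, and Hoxd9 had 20 and 4. Hoxa10 had 11 and 9 reads, above its WT reads of 1, 0 and 7, while Hoxc10, Hoxa9, Hoxc9 and Hoxd10 had 6 or fewer in each library. The authors' deposited table gives Hoxb9 a log2 fold change of 1.31 ± 1.11 (adjusted p = 0.785), the only member with an adjusted p, and none had an unadjusted p under 0.05, where 1.72% of 13811 tested genes were called higher and 0.695% lower. In Deltaex4, Hoxb9 had 19 and 2 reads and no other member exceeded 3. All 7 had an adjusted p of 0.999977 in the authors' deposited table and none had an unadjusted p under 0.05, where 0% of 20263 tested genes were called in either direction.

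NP differed from ESC in 1 member above all. Hoxb9 had 14768 and 4066 reads in the first pair of NP WT libraries and 11563 and 20198 in the second, against 5 to 18 in ESC WT. The other 6 genes had at most 53 reads in any NP WT library, beside at most 7 in any ESC WT library. Hoxa9 had 53, 13, 31 and 47 reads in NP WT, Hoxc9 40, 47, 19 and 17, and Hoxd9 28, 32, 15 and 23. Hoxa10 had 16, 17, 18 and 35 reads, Hoxc10 9, 8, 3 and 11, and Hoxd10 1, 2, 0 and 2. NP and ESC libraries are not in a common table, so no test was made of the levels.

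In the NP KO, Hoxb9 moved one way and the other members the opposite way. In the authors' deposited table of KO against the first WT pair, 6 of 7 members were called higher and 1 lower, where 11.6% of 16410 tested genes were called higher and 9.85% lower. The median log2 fold change was 4.15. Hoxb9 fell to 1548 and 1092 reads in the KO, below all 4 WT libraries, with a log2 fold change of -2.37 ± 0.41 in the authors' deposited table (adjusted p = 2.71e-07). Its lowest WT library, b, had 4066 reads, and the neural markers with recovered reads (7 of 8) were also low there: 8762 scaled reads, beside 32087, 36357 and 37374 in the other WT libraries and 1449 and 1922 in the KO. The part of this marker difference in the fall of Hoxb9 was not tested.

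The members that rose did so in both KO libraries. Markers of other lineages were higher there too: trophoblast markers with recovered reads (4 of 6) summed to 1912 and 1445 scaled reads in the KO against 263 to 547 in WT, and the 5 endoderm markers to 8444 and 15531 against 2814 to 6970. Their part in the rise was not tested. Hoxa9 had 213 and 205 reads in the KO, beside 53 in its highest WT library, and a log2 fold change of 3.14 ± 0.70 in the authors' deposited table (adjusted p = 0.000123). Hoxc9 reached 691 and 647 reads, the highest of the rising genes, and 4.15 ± 0.46 on the log2 scale in the authors' deposited table (adjusted p = 1.50e-17). Hoxd9 reached 389 and 541 reads, with 4.14 ± 0.51 in the authors' deposited table (adjusted p = 5.67e-14). For each of these the KO libraries lay above all 4 WT libraries.

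The group 10 genes rose too, with the larger values in this comparison. Hoxa10 had 372 and 395 reads in the KO and a log2 fold change of 4.74 ± 0.56 in the authors' deposited table (adjusted p = 3.54e-15). Hoxc10 had 349 and 526 reads and 5.86 ± 0.62 in the authors' deposited table (adjusted p = 3.68e-19). Hoxd10 had 107 reads in both KO libraries against 3 in the first WT pair together: the ratio of scaled reads was 82.1, with a counting interval from 27.7 to 401, and the authors' deposited table gives 6.39 ± 1.18 (adjusted p = 1.39e-06). The order of the folds among genes was not tested, and the error bars of neighbours in it overlap.

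The second pair of WT libraries, set against the same KO libraries, gave the same 7 calls. In the authors' deposited table of WT against KO, in which a negative value means lower in WT, 6 members were called lower and Hoxb9 higher, where 17.3% of 17214 tested genes were called lower and 15.6% higher. Hoxb9 was 3.15 ± 0.26 higher in WT on the log2 scale (authors' deposited table, adjusted p = 7.95e-33), and the other 6 ranged from -2.86 ± 0.55 at Hoxa9 to -7.31 ± 1.31 at Hoxd10. Both tables share the KO libraries, so they are not independent of each other.

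**Figure D2:**
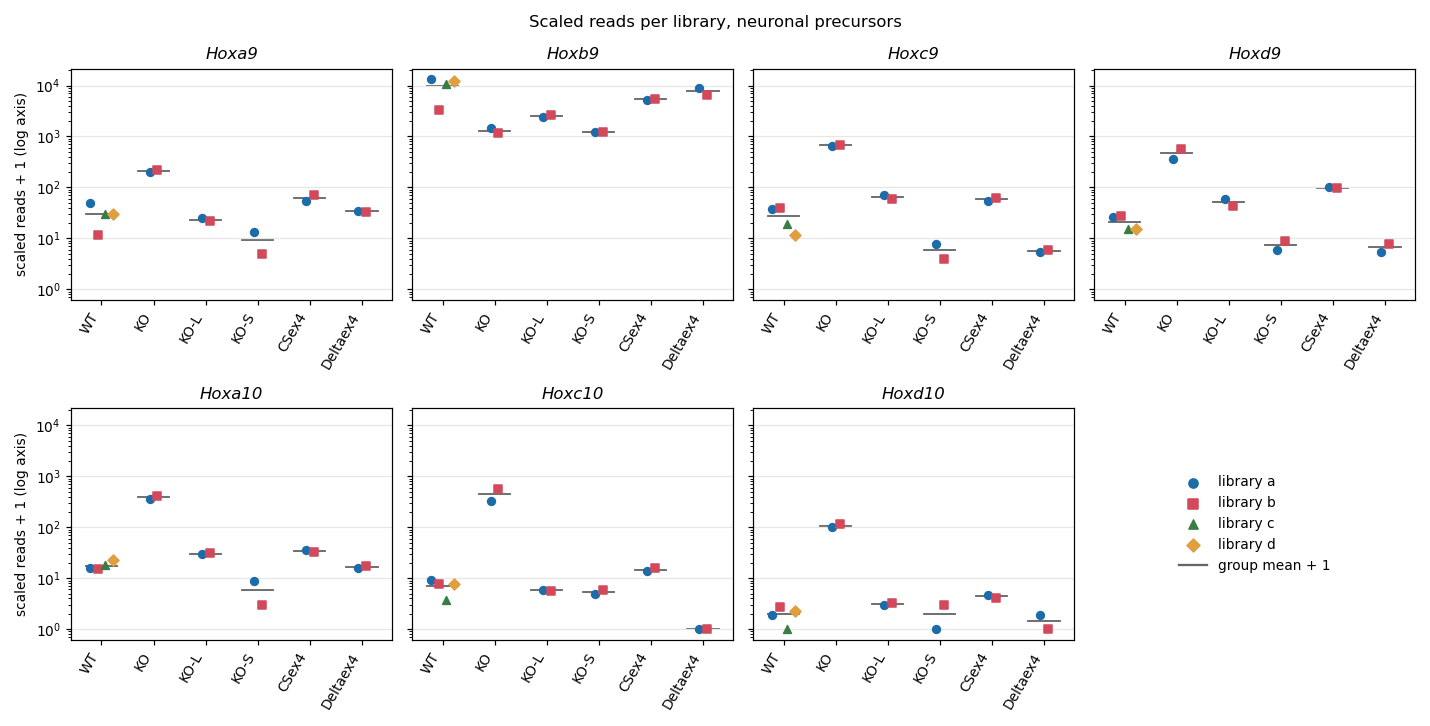
Scaled reads plus 1 (log axis) of each member in each NP library, by group, with the group mean as a line. The 2 KO libraries lie above all other libraries for 6 genes, and for Hoxb9 the KO and KO-S libraries are the lowest.

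Both rescues brought 6 members down in NP, the short isoform further for several of them. In the authors' deposited table of KO-L against KO, 6 of 7 were called lower and 1 higher, where 13.8% of 16678 tested genes were called lower and 10.9% higher. In that of KO-S against KO, 6 were called lower and none higher, where 18% of 16253 tested genes were called lower and 16.4% higher. The median log2 fold changes were -3.40 and -6.35.

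Hoxc9 had 70 and 50 reads in KO-L but 7 and 3 in KO-S, which is also under its 17 to 47 reads in WT. In the authors' deposited tables it fell by 3.40 ± 0.34 with the long isoform and by 7.11 ± 0.57 with the short, and the difference of -3.72 ± 0.66 between these passed the test (adjusted p = 1.22e-06, z test over all genes). Hoxd9 had 60 and 37 reads in KO-L and 5 and 8 in KO-S, with a difference of -3.04 ± 0.67 (adjusted p = 0.000209). Hoxa10 had 29 and 26 reads in KO-L and 8 and 2 in KO-S, with a difference of -2.64 ± 0.77 (adjusted p = 0.00946). For all 3 genes the KO-S libraries lay below the KO-L libraries. Hoxb9 was the last of the 4 members that differed, with 2437 and 2227 reads in KO-L and 1299 and 1237 in KO-S, a difference of -1.01 ± 0.30 (adjusted p = 0.0104). The test takes the difference of the deposited DESeq2 fold changes over their joint error and is conservative where the KO libraries are shared. It called 4.56% of 15615 genes lower and 5.71% higher in KO-S.

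For the other members the rescues were not separated. Hoxa9 had 24 and 18 reads in KO-L and 13 and 4 in KO-S, and its difference was -1.53 ± 0.83 (adjusted p = 0.294). Hoxc10 was at 5 and 4 reads in KO-L and 4 and 5 in KO-S, its difference was -0.16 ± 0.86 (adjusted p = 0.961), and both sets lay in its WT range. Hoxd10 was at 2 and 2 reads in KO-L and 0 and 2 in KO-S, too few to tell the rescues apart at this depth, although both were called lower than KO in the authors' deposited tables (-5.65 ± 1.00 and -6.87 ± 1.25).

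Whether the rescues reached the WT response depended on the pair of WT libraries. Taking WT and rescue each against KO, with the second WT pair (c and d), Hoxc9 was 2.22 ± 0.57 higher in KO-L than in WT (adjusted p = 0.00158) and Hoxd9 1.84 ± 0.63 higher (adjusted p = 0.0301), and Hoxb9 differed by -2.21 ± 0.34 (adjusted p = 6.98e-09), where 6.91% of 15673 genes were higher and 7.28% lower. With the first pair (a and b) no member of KO-L passed, where 2.68% of 15738 genes differed: Hoxc9 was at 0.75 ± 0.57 (adjusted p = 0.685), Hoxd9 at 0.97 ± 0.66 (adjusted p = 0.618) and Hoxb9 at -1.44 ± 0.47 (adjusted p = 0.0697), the last alone with an unadjusted p under 0.05. For KO-S, Hoxb9 differed from both pairs, by -3.23 ± 0.33 from the second (adjusted p = 4.25e-19), where 1.83% of 15819 genes were lower and 2.94% higher, and by -2.45 ± 0.46 from the first (adjusted p = 5.37e-05), where 0.417% of 15818 genes were lower and 0.885% higher. Hoxc9 differed from the first pair only, by -2.97 ± 0.73 (adjusted p = 0.00661), and was at -1.49 ± 0.73 with the second (adjusted p = 0.345). Hoxb9 stayed below the reads of all 4 WT libraries in both rescues. Against the KO, it rose over the KO with the long isoform by 0.94 ± 0.22 (authors' deposited table, adjusted p = 0.000176) and stood at -0.08 ± 0.20 with the short (authors' deposited table, adjusted p = 0.819). The neural markers with recovered reads summed to 6116 and 8026 scaled reads in KO-L, below all 4 WT libraries, and to 9831 and 11872 in KO-S, above the lowest WT library. The 8 ESC markers summed to 29262 and 20053 scaled reads in KO-L, to 7359 and 6383 in KO-S and to 6217 to 13971 in WT. KO-L was thus above KO-S in Hoxb9 and in the ESC markers and below it in the neural markers, and the part of these markers was not tested.

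Editing exon 4 gave no called member in NP. In CSex4, Hoxd9 had 109 and 92 reads, above all 4 WT libraries, and the largest log2 fold change, 1.91 ± 0.70 in the authors' deposited table (adjusted p = 0.0894), the only member with an unadjusted p under 0.05. Hoxa9 had 58 and 66 reads, Hoxc9 57 and 59, Hoxa10 37 and 31, Hoxc10 14 and 14, and Hoxd10 4 and 3. In scaled reads both libraries lay above all 4 WT libraries for all 6 of these genes. The share of all genes that did the same was not counted, so this cannot be read as particular to the members. The median log2 fold change of the 7 members was 1.21 in the authors' deposited table, where 4.08% of 15603 tested genes were called higher and 1.45% lower. The 8 ESC markers summed to 38931 and 39669 scaled reads in these libraries against 6217 to 13971 in WT, and the neural markers with recovered reads to 10283 and 10450 against 8762 to 37374, and their part was not tested. Hoxb9 had 5677 and 5242 reads, within the range of the WT libraries (-0.33 ± 0.42, authors' deposited table, adjusted p = 0.860).

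In Deltaex4 NP, Hoxb9 had 9888 and 6623 reads and Hoxa9 38 and 33, within the WT range. Hoxa10 had 17 and 17 reads, in the WT range too. The HoxC and HoxD genes had few reads: Hoxc9 had 5 and 5 reads, Hoxd9 5 and 7, Hoxc10 0 and 0, and Hoxd10 1 and 0. For Hoxc9, Hoxd9 and Hoxc10 both libraries lay below all 4 WT libraries, and the share of all genes that did so was not counted. No member was called in the authors' deposited table, where 0.0289% of 17315 tested genes were called higher and 0.052% lower. The log2 fold change of Hoxc9 there was -3.01 ± 1.31 (authors' deposited table), and it alone among the members had an unadjusted p under 0.05, of 0.0216. With the count of 0 taken at a floor of 3 reads over the group, Hoxc10 was 5.28-fold below the mean of the first WT pair. That mean rests on 9 and 8 reads, so the fold is not a firm bound. The log2 fold change of Hoxc10 was -5.42 ± 3.58 in the authors' deposited table (adjusted p = 0.999964).

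**Figure D3:**
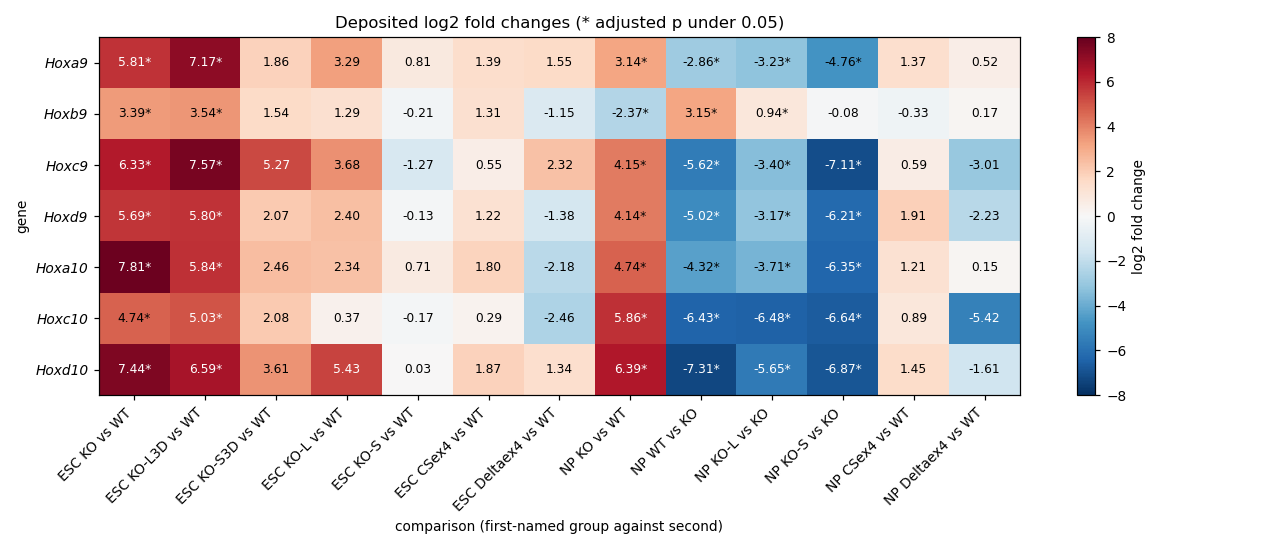
Deposited log2 fold changes of the 7 members (rows) in the 13 comparisons (columns), red higher and blue lower in the first-named group, with an asterisk where the adjusted p was under 0.05. Hoxb9 has the opposite sign to the other members in the NP KO and WT comparisons, as in the values given above.

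The response to the KO was compared between ESC and NP by the same z test, on the fold changes of DESeq2 as deposited. Of the 7 members, 1 differed, where 7.97% of 14631 genes were lower in NP and 6.37% higher. It was Hoxb9, with a difference of -5.76 ± 0.70 (adjusted p = 5.59e-14). Hoxa9 (-2.67 ± 1.10, adjusted p = 0.0857), Hoxa10 (-3.07 ± 1.53, adjusted p = 0.186) and Hoxc9 (-2.18 ± 1.29, adjusted p = 0.295) also had lower values in NP without passing. Hoxd9 (-1.55 ± 0.81), Hoxd10 (-1.05 ± 1.77) and Hoxc10 (1.13 ± 0.89) did not pass either, and the last of these had the only higher value in NP. With the second NP WT pair, Hoxa9 passed as well (-2.95 ± 1.01, adjusted p = 0.0194) beside Hoxb9 (-6.54 ± 0.62), where 11.3% of 14567 genes were lower in NP and 11.1% higher. For CSex4 and Deltaex4 only Hoxb9 had enough reads in both cell types to be compared, and it did not differ by this test (-1.65 ± 1.18, adjusted p = 0.582, and 1.32 ± 1.80, adjusted p = 0.999998), where 4.97% and 0.0071% of genes differed.

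The groups can be put in order by mean scaled reads, with the libraries as the spread. Order and overlap were not computed over all genes. In ESC, KO and KO-L3D took the first and second place for all 7 genes, KO ahead for Hoxa10 (314 ± 85.7, SD, n = 3, against 217 ± 55.7, n = 2) and Hoxd10 and KO-L3D ahead for the other 5. KO-L and KO-S3D came next for all 7, with an SD above the mean for all but Hoxc9 in KO-L, such as 80.5 ± 112 for Hoxa10 in KO-L and 90.3 ± 111 for Hoxb9 in KO-S3D. The last 4 places were held by CSex4, KO-S, WT and Deltaex4 in varying order. The libraries of neighbours overlapped at all but 1 of 7 steps for Hoxa9 and Hoxb9, all but 2 for Hoxd9 and all but 3 for Hoxa10, and at every step for Hoxc9, Hoxc10 and Hoxd10.

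In NP the order was clearer. KO was first for 6 members, and its libraries did not overlap with those of the next group, which was KO-L for Hoxc9 (669 ± 22.5 against 63.4 ± 7.61, n = 2 each) and CSex4 for the other 5. For Hoxd9 the order was KO (470 ± 145), CSex4 (98.1 ± 3.04), KO-L (51.0 ± 11.3), WT (20.0 ± 6.94, n = 4), KO-S (6.36 ± 2.23) and Deltaex4 (5.67 ± 1.70), and only the last 2 overlapped. Hoxb9 had the order WT (9982 ± 4529), Deltaex4 (7671 ± 1650), CSex4 (5344 ± 174), KO-L (2491 ± 134), KO (1309 ± 217) and KO-S (1234 ± 9.83), with overlap between WT and Deltaex4 and between KO and KO-S. For Hoxc10, CSex4 (13.7 ± 1.22) lay apart from WT (6.08 ± 2.30), and KO-L (4.78 ± 0.19) lay within the WT range.

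The 32 other Hox genes were read as a list. In ESC KO, 25 of the 32 were called higher and none lower in the authors' deposited table, with medians of 3.42 for the 20 genes of groups 1 to 7, 4.37 for the 3 of group 8 and 6.85 for the 9 of groups 11 to 13. The members' median of 5.81 lay between the medians of groups 8 and 11 to 13. In NP KO against the first WT pair the list divided: 17 of 20 genes of groups 1 to 7 were called lower and none higher, while 7 of 9 of groups 11 to 13 were called higher and none lower. Hoxb9 fell with groups 1 to 7 and the other members rose with groups 11 to 13. Within HoxB, Hoxb8 also fell, by 2.83 ± 0.42 (authors' deposited table, adjusted p = 1.12e-09), and Hoxb13 rose by 5.18 ± 0.38 (authors' deposited table, adjusted p = 1.78e-38), so the sign changed between Hoxb9 and Hoxb13. In HoxC the gene before Hoxc9, Hoxc8, rose by 3.33 ± 0.44 in the authors' deposited table (adjusted p = 1.74e-12). In HoxD, Hoxd8 was not called (0.95 ± 0.55, authors' deposited table, adjusted p = 0.236), and in HoxA, Hoxa7 was not called (-1.03 ± 0.55, authors' deposited table, adjusted p = 0.182). With the second WT pair, 19 of the 20 genes of groups 1 to 7 were called lower in the KO, Hoxa7 among them, and none higher.

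**Figure D4:**
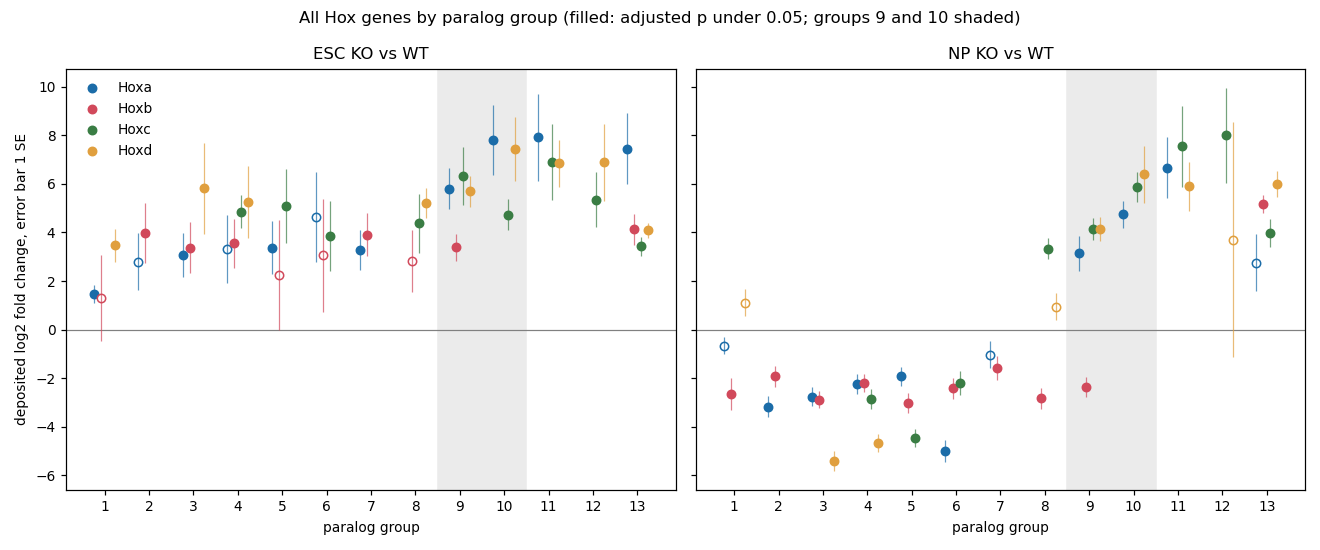
Deposited log2 fold changes of all 39 Hox genes with a row, by paralog group and cluster, in KO against WT for ESC (left) and for NP with the first WT pair (right), with bars of 1 SE and filled points where the adjusted p was under 0.05. In ESC no called gene is lower, and in NP groups 9 and 10 (shaded) hold 6 higher genes and Hoxb9.

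The rescues in NP divided the same lists. Of groups 1 to 7, 15 of 20 genes were called higher and 1 lower in KO-L against KO, and 17 higher and 1 lower in KO-S, in the authors' deposited tables. Of groups 11 to 13, 6 of 9 were called lower in KO-L against KO and 5 in KO-S, and none was called higher. Their median log2 fold changes in the authors' deposited tables were -4.67 in KO-L and -7.84 in KO-S, so these counts do not rank the rescues. Hoxa11, for one, was not called in KO-S, with 0 reads in both libraries there and 98 and 139 in the KO. In NP CSex4, 8 of the 20 genes of groups 1 to 7 were called lower and none higher in the authors' deposited table, while none of the members, of group 8 or of groups 11 to 13 was called.

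Hox proteins of these groups bind DNA with Pbx and Meis or Pknox cofactors. Of 9 cofactor genes, the authors' deposited table called 3 higher and none lower in ESC KO: Meis1 (1.80 ± 0.34), Meis2 (3.21 ± 0.29) and Pknox2 (2.17 ± 0.30). In NP KO none was called higher, and the genes that the authors' deposited table called lower included Pbx3 (-2.12 ± 0.39) and Pknox2 (-2.36 ± 0.41). Pknox2 thus moved up in ESC and down in NP, as Hoxb9 did, with a difference between cell types of -4.52 ± 0.50 (adjusted p = 2.05e-16, z test over all genes).

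Cdx factors, Gdf11, Wnt3a, Fgf8 and enzymes and receptors of retinoic acid are known regulators of posterior Hox genes. Of 11 such genes, 5 were called higher (Cdx1, Cdx2, T, Wnt3a and Aldh1a2) and 1 lower (Rara) in ESC KO. Cdx1 stood at 4.24 ± 0.39 there (authors' deposited table). In NP KO against the first WT pair, Cdx2 (2.16 ± 0.45) and Aldh1a2 (1.69 ± 0.49) were called higher and none lower in the authors' deposited table. With the second WT pair, Cdx2 and Aldh1a2 were again called higher in the KO, and Gdf11, Rarb and Rara were called lower in the KO. Summed scaled reads of the 10 regulators with recovered reads differed between the ESC libraries that stood apart, with 1021 in KO-S3D library a and 231 in library b, and with 913 and 721 in KO-L, and their part was not tested.

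Among the cluster's non-coding genes, Mir196a-1, next to Hoxb9, had no read in any ESC WT library and 22, 37 and 23 reads in the ESC KO, with an adjusted p of 6.17e-05 in the authors' deposited table. In NP it had 15 and 21 reads in the KO and 0, 4, 6 and 5 in WT, and was not called (4.30 ± 2.11, authors' deposited table, adjusted p = 0.140), while Hoxb9 fell. Mir196b, between Hoxa9 and Hoxa10, had 2, 2 and 3 reads in the ESC KO and none in WT, and Mir196a-2 had none in any ESC library. Hotair, a HoxC antisense RNA, had 13 and 8 reads in the NP KO and none in the 4 NP WT libraries. With no strand given for the counting, these reads cannot be assigned to a strand.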

How the data were processed

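The deposited files hold statistics of comparisons and not values of samples, so the tests per gene are those of the authors and none was refitted. The members and gene lists were chosen with earlier results of these data known. Per the file headers, the columns are those of DESeq2, and the labels call the statistics paired. The fold changes and p-values may thus come from fits with a replicate term, whose form is not given in the sources used here. The submitters' processing notes name TopHat, Bowtie, DESeq2 and DiffBind and the builds mm10 and dm3, with no role or version. Annotation and strand of counting are not given in the sources used here. The authors' baseMean is a signal, an average over libraries of reads divided by size factors. Their log2 fold changes and standard errors, the score (fold change over its error) and the p-value, unadjusted and adjusted, were used as deposited, with a gene called at an adjusted p under 0.05. A gene without an adjusted p was not called. The deposited WT region lists give 1 value between 0 and 1 per region at a false discovery rate of 5%, per the file headers, which do not say if it is a p-value.

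Whole reads of each library were solved for from the deposited baseMean, with weights read from genes with a single read. The search, which kept a limited number of candidates at each step, found 1 solution for each of the 7 members in ESC and in NP. Libraries that hold the same reads in low genes (100%, other pairs at most 18.7%) were taken as 1 library, and a library's group follows from the tables that hold it. No test between groups was made on these reads. To ratios of means, 1 scaled read was added. Counting intervals cover counting error only. The summed baseMean per table was 26085100 to 31499800. In ESC tables with 2 libraries beside WT, WT library b carries little weight in the fit: a gene whose sole read lies in it has an absolute fold change up to 0.235 on the log2 scale, against 1.05 or more for any other library (authors' deposited tables). The deposited fold changes of those tables thus rest mainly on WT libraries a and c, while the WT reads and means given here include library b.

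Differences between comparisons were tested as z scores of the deposited fold changes, with Benjamini-Hochberg adjustment over all genes whose baseMean reached 10 in each of the 2 tables. This test and the read recovery were tested on simulated data. The recovery was simulated within single tables only, at read numbers well below the highest given here. Named genes were the 7 members, the flanking Hox genes, called genes of the lists, Suz12 and the 3 non-Hox genes most alike. Tools were Python 3.11.15, numpy 2.4.6, pandas 2.3.3, scipy 1.17.1 and matplotlib 3.10.9. Sequences came from RefSeq tables of GRCm38.p6, in which 4 of 7 members had a promoter (not Hoxb9, Hoxc9 or Hoxc10). Fits of counts, planned in case of count tables, were not run. The result of 1 cofactor gene in NP is not reported here.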

Additional observations from a re-analysis of the deposited data

Results flagged for a closer look

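Among the members, 9 differences between responses passed the test of the difference itself, counting 1 WT pair for each comparison. Hoxb9 responded to the KO in NP by 5.76 less on the log2 scale than in ESC (-5.76), rising in ESC and falling in NP. With the second NP WT pair Hoxb9 (-6.54) passed again, and Hoxa9 (-2.95) passed beside it. Between the NP rescues, each against KO, the short isoform gave lower values than the long for Hoxb9 (-1.01), Hoxc9 (-3.72), Hoxd9 (-3.04) and Hoxa10 (-2.64). Between the long-isoform rescue and the second pair of WT libraries in NP, each against KO, Hoxc9 (2.22) and Hoxd9 (1.84) were higher and Hoxb9 (-2.21) was lower in the rescue. Against the first WT pair these were 0.75, 0.97 and -1.44, and none passed. Between the short-isoform rescue and the second WT pair, Hoxb9 was lower in the rescue (-3.23), as it was against the first (-2.45). Hoxc9 was lower in the short-isoform rescue against the first WT pair only (-2.97). All values are differences of deposited log2 fold changes, and those within NP share the KO libraries. In the 4 NP WT libraries, no member had a value past the critical value of Dixon's test, which with 4 values has little power. The widest gap was that of Hoxb9 in library b, 3378 scaled reads against 10820 or more in the others, a gap of 0.741 of the range.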

How the results depend on the processing

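Alternative thresholds, adjustments, filters and WT pairs moved these counts of called members by over 1.5 times: with an absolute log2 fold change of at least 1 as well, 0 members were called higher in NP KO-L against KO (Hoxb9 is at 0.94), and at an adjusted p under 0.1, 1 was called higher in NP CSex4 (Hoxd9). At an adjusted p under 0.01, 1 member in place of 2 was higher in NP KO-L than in WT, and with the second NP WT pair 2 in place of 1 responded lower in NP than in ESC. With the first NP WT pair, an alternative added after seeing the data, 0 members in place of 2 were higher and 0 in place of 1 lower in NP KO-L than in WT, and 2 in place of 1 were lower in KO-S. Smaller changes came at an adjusted p under 0.01, with 6 of 7 members called higher in ESC KO-L3D and 3 in place of 4 lower in NP KO-S than KO-L. The mean in place of the median log2 fold change was -4.06 in NP WT vs KO and -5.43 in NP KO-S vs KO, and members with baseMean of at least 10 had a median of 0.15 in NP Deltaex4. The median log2 ratio of mean scaled reads, also added after seeing the data, went to 1.59 in ESC CSex4 and -0.13 in NP Deltaex4 for members with at least 10 scaled reads. Leaving out each library in turn, that ratio ran from 4.71 to 6.05 in ESC KO-L3D, -0.22 to 3.75 in KO-S3D, 0.26 to 3.50 in KO-L, -3.50 to -3.26 in NP KO-L, -6.35 to -5.68 in NP KO-S, 0.68 to 0.95 in NP CSex4 and -1.19 to -0.27 in NP Deltaex4. The lowest values of ESC KO-L and KO-S3D are those without library a. The cause of these changes was not tested. The sign of the members' median turned without library a in KO-S3D, with the filter in NP Deltaex4 and, near 0, without single libraries in ESC KO-S and ESC Deltaex4, comparisons in which no member was called. At the WT reads of most members in ESC, falls are not detectable at this depth. No paired analysis was possible because the tables hold statistics, which the labels call paired, and not counts of the samples.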

Other observations

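Over the 13 deposited log2 fold changes, the non-Hox genes most like the members' median profile, among 13583 genes with baseMean of at least 10 in every table, were Fmr1nb (root mean square difference 1.62), Cdkn2a (1.67), which encodes the cell cycle inhibitors p16 and p19, and B3gnt3 (1.72), beside a median difference of 3.78 over those genes. In KO against WT, Cdkn2a had 2.88 in ESC and 3.70 in NP, with the members' medians at 5.81 and 4.15. For Hoxb9, whose profile is of a different shape, they were Pdzrn3 (0.911), Ccbe1 (0.963) and Gcnt4 (1.01), beside a median difference of 2.02. Ccbe1 had 2.46 in ESC KO and -1.80 in NP KO, with Hoxb9 at 3.39 and -2.37. All values are from the authors' deposited tables, the comparisons share control libraries, and likeness over 13 values is a description with no test.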
